A study of Homo sapiens with 6 samples.

Results

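Levels of the miR-151, miR-28 and miR-708 family were followed by small RNA sequencing in MDA-MB-231, a human line of triple-negative breast cancer with mesenchymal traits. The members are the 7 mature miRNAs hsa-miR-151a-3p, hsa-miR-151a-5p, hsa-miR-151b, hsa-miR-28-3p, hsa-miR-28-5p, hsa-miR-708-5p and hsa-miR-708-3p, out of 1582 miRNAs in the table. They were chosen by name as 1 related family, and the family was selected on the large increase of miR-151a-3p between these same groups, so the differences between the groups are given below as a description, without a p-value. The control group consists of 3 libraries of non-transfected cells. The other group consists of 3 libraries of cells overexpressing RARαS77A, retinoic acid receptor α with an alanine in place of the serine that the CDK-activating kinase phosphorylates. Both groups are the same line without a receptor agonist named in the labels, and cells with an empty vector or wild-type RARα were not analysed here, so delivery of the construct and the mutant receptor cannot be told apart. Whether it was delivered as lentivirus or plasmid for these libraries was not settled by the sources, which describe both, and the labels do not say whether the replicates are separate cultures.

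MicroRNAs are cut from a hairpin precursor, first by Drosha and then by Dicer, which leaves a short duplex with a 5p strand and a 3p strand. One strand is usually loaded into an Argonaute protein and guides it to messenger RNAs through its seed, bases 2 to 8, while the other is mostly degraded. The precursors MIR151A, MIR28 and MIR708 are homologous hairpins that have been traced to LINE-2 repeats, and they lie in introns of genes of cell adhesion and of the cell surface. miR-151a is best known in liver cancer, where it is co-expressed with its host PTK2, the gene of focal adhesion kinase, and promotes migration, and miR-708 is known as a suppressor of breast cancer metastasis.

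In GENCODE 29 (GRCh38), MIR151A lies in an intron of PTK2 on the strand of that gene. MIR28 lies on the plus strand of chromosome 3 from 188688781 to 188688866, in an intron of LPP, which encodes a focal adhesion scaffold protein. MIR708 spans 79402022 to 79402109 of chromosome 11 on the minus strand, in an intron of TENM4, a teneurin of the cell surface. Both are on the strand of their host. MIR151B spans 100109419 to 100109514 of chromosome 14 on the minus strand, within an intron of EVL, an actin regulator of the Ena/VASP family, but on the strand opposite to that gene.

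RefSeq (GRCh38.p14) gave the mature sequence of 3 members, which are shown to let the 3p strands of MIR28 and MIR708 be compared and to show the seed of miR-708-5p. The seed is in capitals.
miR-28-3p: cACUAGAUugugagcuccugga
miR-708-3p: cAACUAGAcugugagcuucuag
miR-708-5p: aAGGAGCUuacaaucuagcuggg
The strand miR-28-3p lies at chr3:188688834-188688855 on the plus strand, miR-708-3p at chr11:79402032-79402053 and miR-708-5p at chr11:79402077-79402099, the latter both on the minus strand. Aligned to each other, the 3p strands of MIR28 and MIR708 were identical at 17 of 21 aligned bases, and their longest shared run was UGUGAGCU. They nevertheless had different seeds, because miR-708-3p has 1 base more before the part that both seeds share. Among the miRNAs of the table with a RefSeq sequence, the seed of miR-708-5p was found in 1 other, miR-3139, which had 3, 4 and 1 counts in control and 0, 1 and 0 in RARαS77A libraries, where a 0 leaves room for up to 3 counts. Sequences of miR-151a-3p, miR-151a-5p, miR-151b and miR-28-5p are not shown. These members were not part of the seed search, so a seed that miR-28-5p shares with miR-708-5p would have been missed.

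The libraries held between 9019266 and 11338580 counts. As the counts are relative, levels are given as CPM, counts divided by the library size after TMM scaling, which assumes that most miRNAs do not change. The TMM factors were 1.15, 1.30 and 1.21 in control and 0.811, 0.818 and 0.830 in RARαS77A libraries. Scaling to total counts alone moved the median over the 506 tested miRNAs from a log2 fold change of 0.06 to -0.51, so each fold change of the family is read against this shift. Reads of 4 miRNAs that are abundant in this line (miR-21-5p, miR-100-5p, miR-221-3p and miR-222-3p) summed to between 5476355 and 7047875 counts per library, and those of 6 epithelial miRNAs (5 of the miR-200 family and miR-205-5p) to between 870 and 1345. Libraries also differed in miRNAs of other cells. The sum of 8 miRNAs of pluripotent cells, among them miR-302a-3p and miR-372-3p, was 2 and 1 counts in control replicates 1 and 2, against 3808 in control replicate 3 and between 2789 and 2855 in the RARαS77A libraries. A sum of 4 muscle miRNAs stood at 989 in control replicate 1 and between 30 and 49 in the other libraries, and miR-375-3p of endocrine cells, of which 1 name was in the table, at 870 in control replicate 2 and between 19 and 54 elsewhere. The liver miRNA miR-122-5p had between 99 and 527 counts, and 6 blood miRNAs summed to between 235 and 491. Fold changes of the tested members are therefore also given without control replicate 3 and, by a batch term, against it alone.

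The 7 members spanned a wide range of levels, and their order was nearly the same in both groups. In control cells miR-151a-3p stood first with 5075 ± 514 CPM (SD, n = 3), followed by miR-28-3p with 574 ± 10.9, miR-151a-5p with 154 ± 15.4, miR-28-5p with 37.0 ± 2.58 and miR-151b with 9.81 ± 3.45. Neighbours in this order did not overlap in the control libraries and lay between 3.73-fold and 8.83-fold apart. Only miR-708-5p and miR-708-3p, both near the detection limit, overlapped each other. By count, miR-151a-3p ranked between 20 and 24 of all miRNAs in control libraries and 6 in each RARαS77A library, whereas miR-28-3p ranked between 60 and 66 in control and between 62 and 64 in RARαS77A libraries.

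Of the family, miR-151a-3p was the member with the large difference between the groups. It had 55896, 78559 and 59137 counts in the control libraries and 221157, 201611 and 206080 in the RARαS77A libraries. Every RARαS77A library was thus above every control, also after scaling, with 4483, 5340 and 5403 CPM in control and 28128, 24007 and 24808 CPM in RARαS77A cells. The log2 fold change was 2.34 (standard error 0.12), a 5.05-fold higher level. As a share of all counts, which uses no scaling factor, miR-151a-3p took 0.622% ± 0.0925 of the control libraries and 2.10% ± 0.163 of the RARαS77A libraries (SD, n = 3 each). This value chose the family. For context, its log2 fold change ranked 6 among the 506 tested miRNAs. It ranked 1 among the 46 with a mean of at least 1000 CPM in control cells. The next of these was miR-3529-3p, at 1.22. miR-7-5p had a near-equal log2 fold change of 1.21, and whether both names share reads was not tested. The limit of 1000 CPM was not among the planned comparisons. As the value of miR-151a-3p chose the family, nothing is read from these ranks. Control replicate 3, with the pluripotent miRNAs, gave 5403 CPM, close to the 5340 of control replicate 2. Without control replicate 3 the log2 fold change was 2.33, and against that library alone, by a batch term, it was 2.25. With total counts as the only scaling it was 1.76, the lowest of the values obtained.

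This strand also made up more of the family. All members together took 0.606%, 0.798% and 0.747% of the counts of the control libraries and 2.35%, 2.03% and 2.13% of those of the RARαS77A libraries. Of the family's counts, miR-151a-3p held 86.7% ± 1.17 in control and 96.8% ± 0.377 with RARαS77A (SD, n = 3 each). The other members summed to 9536, 11935 and 8254 counts in control and to 6324, 7302 and 7128 in RARαS77A libraries, so that the rest of the family had fewer counts in each RARαS77A library than in each control. As shares of all counts, the other 4 tested members were each lower in every RARαS77A library than in every control, as were 48.8% of all tested miRNAs.

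The opposite strand of the same hairpin, miR-151a-5p, did not follow. It had 1813, 2528 and 1587 counts in the control libraries and 1007, 1198 and 1189 in the RARαS77A libraries. After scaling these were 145.4, 172 and 145 CPM in control and 128, 143 and 143 CPM in RARαS77A cells, so that the groups did not overlap but nearly touched. The log2 fold change was -0.16 (standard error 0.12), and this call and even its sign rested on the scaling, with values from -0.74 for total counts to 0.05 for upper quartile scaling. It was -0.26 without control replicate 3 and -0.07 against that library alone, and -0.05 without control replicate 2.

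miR-151b, whose annotated sequence closely resembles that of miR-151a-5p, had 90, 202 and 93 counts in control and 47, 44 and 81 in RARαS77A libraries. The scaled groups overlapped, at 7.22, 13.7 and 8.496 CPM in control and 5.98, 5.24 and 9.75 CPM in RARαS77A cells. The log2 fold change was -0.49 with a standard error of 0.33. Single libraries moved it, to -0.14 without control replicate 2, which had the highest level, and to -0.79 without RARαS77A replicate 3. It was -0.64 without control replicate 3 and -0.28 against that library alone. Per 100 reads of miR-151a-5p, control libraries held 6.27 ± 1.55 and RARαS77A libraries 5.05 ± 1.60 reads of miR-151b (SD, n = 3 each). How the authors' counting treated reads matching both names is not stated, so the value for miR-151b is uncertain as a measure of MIR151B alone.

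The arms of MIR28 stayed close to their control levels. miR-28-3p, its more abundant strand, had 7182, 8599 and 6162 counts in control and 4910, 5689 and 5533 in RARαS77A libraries. In CPM these became 576, 585 and 563 in control and 624, 677 and 666 in RARαS77A cells. The RARαS77A libraries were thus all lower in counts and all higher after TMM scaling, and the log2 fold change of 0.19 (standard error 0.08) turned to -0.38 when scaled to total counts alone. It was 0.12 without control replicate 3 and 0.22 against that library alone. miR-28-5p had 441, 588 and 390 counts in control and 343, 362 and 309 in RARαS77A libraries. Its scaled groups overlapped, at 35.4, 40.0 and 35.6 CPM in control and 43.6, 43.1 and 37.2 CPM in RARαS77A cells, and the log2 fold change was 0.16 (standard error 0.15). It was also negative, at -0.42, when scaled to total counts, and was 0.08 without control replicate 3, 0.21 against that library alone and 0.05 without RARαS77A replicate 1.

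miR-708 was barely detected. miR-708-5p had 6, 5 and 16 counts in control and 6, 1 and 10 in RARαS77A libraries, and miR-708-3p had 4, 13 and 6 and 11, 8 and 6, respectively. All these values were at or below 1.46 CPM, the groups overlapped for both strands, and neither strand passed the filter on low counts. A difference in miR-708 was therefore not detectable at this depth.

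Across the family, 1 of the 5 tested members was called higher by edgeR at an adjusted p under 0.05, namely miR-151a-3p, where 23.3% of all tested miRNAs were called higher. None was called lower by edgeR with TMM at an adjusted p under 0.05, where 21.1% of all tested miRNAs were. At an unadjusted p under 0.05, 0 of the members had a negative fold change, and the matching share of all miRNAs is not given here. DESeq2 and limma-voom also called 0 lower. In 3 of the 5 tested members the CPM of the groups did not overlap, against 58.1% of all tested miRNAs. With total counts as the only scaling, 3 members were called lower, where 42.1% of all miRNAs were, and limma on the deposited TPM, as log2 after adding 1, called 4 lower, where 43.7% of all miRNAs were. As the same contrast chose the family, nothing is read from these counts. In bulk RNA a level averages over all cells, so that a change in fewer cells and a smaller change in every cell cannot be told apart.

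**Figure D1:**
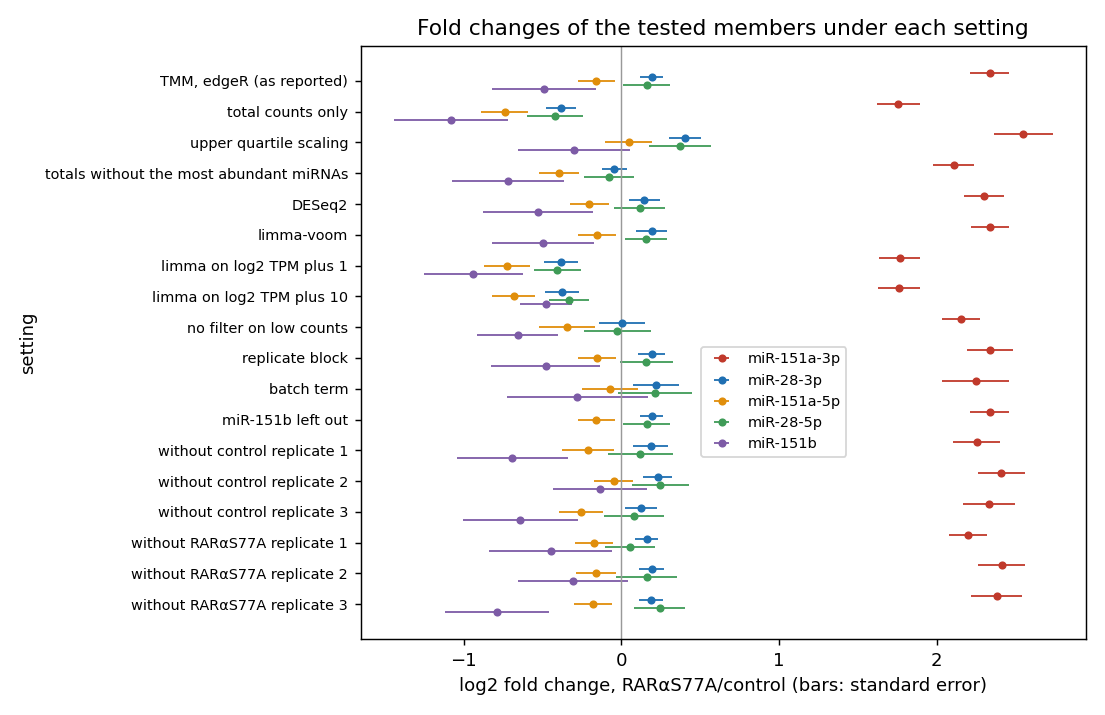
Log2 fold change of the 5 tested members, with the standard error as a bar, as reported (edgeR with TMM) and under each alternative setting. miR-151a-3p lay between 1.76 and 2.55 in all settings, whereas the other members lay between -1.08 and 0.40 and moved with the scaling, miR-151b staying below 0.

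Ratios within a library do not depend on scaling. Reads of miR-151a-3p per read of miR-151a-5p numbered 30.8, 31.1 and 37.3 in the control libraries and 219.6, 168 and 173 in the RARαS77A libraries. The groups were far apart, with means of 33.1 ± 3.65 and 187 ± 28.3 (SD, n = 3 each). The log2 ratio differed by 2.50 (standard error 0.18). In other terms, the 3p strand took between 96.9% (95% Wilson interval 96.7 to 97.0) and 97.4% (97.3 to 97.5) of the miR-151a reads in control libraries, and between 99.4% (99.4 to 99.4) and 99.5% (99.5 to 99.6) in RARαS77A libraries. These intervals cover counting error only. Control replicate 3 had the highest ratio among controls. Without it the difference in log2 ratio was 2.58, and with RARαS77A compared against it alone it was 2.32.

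The ratio of the MIR28 strands, in contrast, overlapped between the groups. Reads of miR-28-3p per read of miR-28-5p were 16.3, 14.6 and 15.8 in control and 14.3, 15.7 and 17.9 in RARαS77A libraries, with a difference in log2 ratio of 0.03 (standard error 0.16). For miR-708 neither strand was the more abundant in all libraries. The 3p strand held 46.0% of 23 and 27 reads of the 3p and 5p strands over the control libraries (95% exact interval 31.8 to 60.7). Over the RARαS77A libraries it held 59.5% of 25 and 17 reads (43.3 to 74.4). These intervals pool the libraries and cover counting error only. In single libraries the 3p share ran from 27.3% to 72.2% in control and from 37.5% to 88.9% with RARαS77A. A shift of arms could not be seen with so few reads.

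Strands of miR-151a were also set against those of miR-28, the related hairpin in another host gene, within each library. Reads of miR-151a-3p per read of miR-28-3p were 7.78, 9.14 and 9.60 in control and 45.0, 35.4 and 37.2 in RARαS77A libraries. Reads of miR-151a-5p per read of miR-28-3p went the other way, from 0.252, 0.294 and 0.258 to 0.205, 0.211 and 0.215, and the groups did not overlap. Against miR-28-5p, miR-151a-5p also stood lower in each RARαS77A library, at 2.94, 3.31 and 3.85 reads per read, than in each control library, at 4.11, 4.299 and 4.07.

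To place miR-151a among other hairpins, the ratio of arms was computed for the 117 precursor names with both strands in the table and a mean count of at least 10 in each, 2 of them of this family. By limma on the log2 ratio, 18.8% of these pairs had a higher 3p to 5p ratio in RARαS77A cells at an adjusted p under 0.05. A lower ratio was called in 29.9%, and the median size of the change was 0.74. Not all names had counts of their own. miR-423 and miR-3184 had near-equal counts with the strands swapped, and log2 ratio changes of -1.43 and 1.43. Both were called, so they enter both shares and the counts of pairs below. The miR-151a pair was called higher and the miR-28 pair was not called. As the counts of miR-151a-3p chose the family, nothing is read from the call of the miR-151a pair or from its place in size. In size, 2 pairs exceeded the change of 2.50 of miR-151a, namely miR-181b (-3.95, standard error 0.92, adjusted p = 0.0115, limma) and miR-25 (2.82, standard error 0.33, adjusted p = 0.00116, limma). These differed in kind from miR-151a. In miR-25 the 5p strand had a log2 fold change of -2.58 and the 3p strand of 0.14. In miR-181b the 3p strand had a log2 fold change of -4.12, from a mean of 120 counts in control to only 4.33 in RARαS77A libraries. Its 5p strand was also lower, at -0.89. In miR-151a, by contrast, the already more abundant strand became more abundant, which was not particular to this pair. In miR-582, for example, the 3p and 5p strands had means of 929 and 265 counts in control. Their log2 fold changes were 1.67 and -0.42. By edgeR, both strands were called in the same direction in 22 of the 117 pairs and in opposite directions in 10, only 1 strand was called in 48, like miR-151a, and neither in 37, like miR-28.

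**Figure D2:**
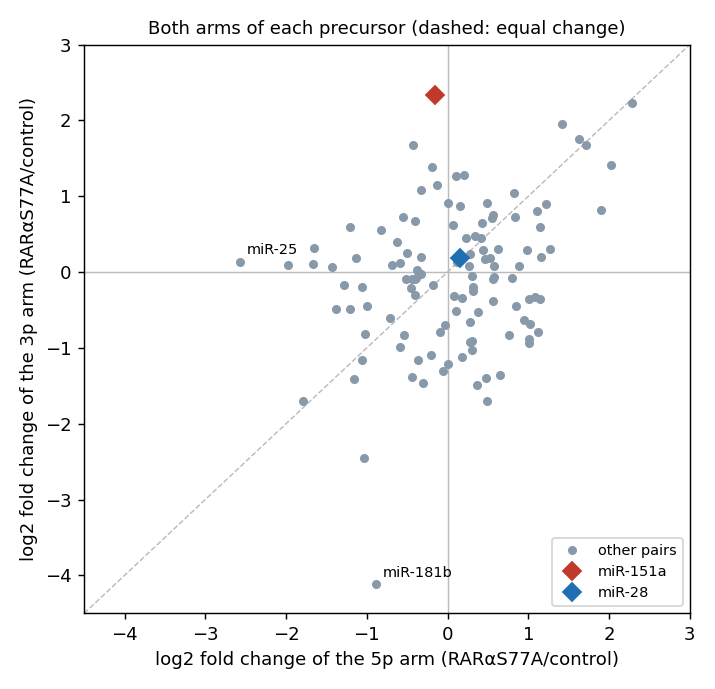
Log2 fold change of the 5p strand against that of the 3p strand for 117 precursor names (edgeR with TMM), with equal change as a dashed line. miR-151a lay at -0.16 and 2.34, far from the line, and miR-28 lay on it at 0.16 and 0.19.

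The miRNAs most like miR-151a-3p across the 6 libraries were of low abundance, and its relatives were further away. Likeness was measured as the root mean square difference of the log2 CPM, each miRNA centred on its own mean over the libraries. As this measure starts from the values that chose the family, miRNAs with a like fold change were bound to be near. Nothing is read from the distance of the relatives. The nearest were miR-4661-5p (0.0860), miR-659-5p (0.141) and miR-3690 (0.187), where the median over all tested miRNAs was 1.20 and the nearest family member, miR-28-3p, was at 1.08. miR-4661-5p had 30, 42 and 34 counts in control and 116, 111 and 103 in RARαS77A libraries, a log2 fold change of 2.27 (standard error 0.19). The other nearest miRNAs had log2 fold changes of 2.27 and 2.09.

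Other miRNAs from hairpins described as derived from LINE-2 repeats were listed for comparison. The list was written from general knowledge, and its membership was not checked against an annotation of repeats. Of 12 listed names 10 were in the table and 6 were tested. By edgeR, 3 of these were called lower, where 21.1% of all tested miRNAs were, and none higher, where 23.3% were. DESeq2 called 0 of them higher, beside 109 of all tested miRNAs, and limma-voom 1, beside 138. At an unadjusted p under 0.05 by edgeR, 1 was higher and 3 lower, and the matching share of all miRNAs was not computed. The median log2 fold change of the 6 was -0.47, beside 0.06 over all tested miRNAs. Those called lower were miR-374b-5p (-1.79, standard error 0.16, adjusted p = 0.000237, edgeR), miR-374b-3p (-1.70, adjusted p = 0.00158, edgeR) and miR-374a-5p (-0.59, adjusted p = 0.0201, edgeR). All are strands of miR-374a or miR-374b, and both strands of each are among the 6 tested names. The calls and the median are thus not those of separate hairpins, and nothing is read from them about LINE-2 hairpins in general. miR-95-3p had 88.7 ± 4.995 CPM in control and 114.5 ± 13.6 in RARαS77A cells (SD, n = 3 each). None of the tested names of this list had a fold change near that of miR-151a-3p, the highest being 0.37.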

How the data were processed

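Small RNA libraries (NEBNext Multiplex Small RNA Library Prep Set, Illumina) were made from MDA-MB-231 cells, 3 control and 3 RARαS77A. The authors deposited whole-number read counts per mature miRNA, not normalized, and TPM values beside them. These TPM equal the counts divided by the library total, without a length term (largest difference 4.74e-05 TPM). The submitters' processing notes name Bowtie. For its settings, the reference and reads with several matches, details were not given in the sources used here.

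Counts were tested with edgeR 4.0.16 (TMM, filterByExpr with a minimum count of 10, glmQLFit and glmQLFTest, no block) in R 4.3.3 over all 506 miRNAs that passed, with Benjamini-Hochberg adjustment and a limit of 0.05. Standard errors are the size of the log2 fold change over the square root of F. Log2 ratios of the 3p to the 5p counts, with 0.5 added to each, were tested with limma 3.58.1 over 117 pairs. Both were tested on simulated data. For the arm ratios these were normally distributed values rather than counts, and no result here rests on them. Alternatives used DESeq2 1.42.0, limma-voom, limma on log2 TPM plus 1 or 10, other scalings and filters, a replicate block, a batch term and libraries left out. The p-values set the difference between the groups against the spread between these libraries, which may be technical. Totals of 9019266 to 11338580 counts set the precision. Intervals are from scipy 1.17.1.

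The members, lists, tests and alternatives were chosen with earlier results of these data known. Named are the 7 members, miRNAs with a shared seed, called miRNAs of the LINE-2 list, the 3 miRNAs most like miR-151a-3p and arm pairs with a larger change than miR-151a. miR-3529-3p, miR-95-3p and miR-582 were named after their values had been seen. Precursors were placed with GENCODE 29, and sequences are RefSeq's for GRCh38.p14 (1342 of 1582 names matched).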

Additional observations from a re-analysis of the deposited data

How the results depend on the processing

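The log2 fold change of miR-151a-3p lay between 1.76 (total counts) and 2.55 (upper quartile) over 17 alternatives, and between 2.20 and 2.41 with each library left out. The log2 arm ratio of miR-151a, which holds the same counts, lay between 2.32 (batch term) and 2.58 over 10. As these counts in the same libraries chose the family, these ranges describe the settings and are no independent support. The smaller values of the other members depended on the scaling. miR-28-3p was called lower with total counts (-0.38) and with limma on TPM plus 1 (-0.38) and plus 10 (-0.38), but higher with upper quartile scaling (0.40). miR-28-5p was called lower with limma on TPM plus 1 (-0.41). miR-151a-5p gained a call as lower under 4 alternatives and miR-151b under 3, all but 1 of them settings without a composition factor, in which the whole table shifts down. That 1 was miR-151a-5p with totals without the 5 most abundant miRNAs (-0.40).

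Over all miRNAs, 118 were called higher and 107 lower. With total counts there were 51 and 213, with limma on TPM plus 1, 55 and 221, and plus 10, 59 and 218. The batch term, which leaves 1 control library, gave 76 and 55. A limit of 0.01 left 62 lower. Without a filter 162 were lower, and the cause was not tested. Of the arm pairs, 22 were higher and 35 lower, and 11 lower with the batch term. Deviations of same-numbered libraries had correlations of 0.0353, 0.103 and 0.0165, and those of differently numbered ones lay between -0.123 and 0.0647. These values show no clear sign of pairing by number, but with 3 libraries per group they cannot exclude it. With the number as a replicate block, the log2 fold change of miR-151a-3p was 2.34 and the calls of the family did not change. With 1 to 16 counts per library, miR-708 was too shallow to compare.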
